A study of Mus musculus with 18 samples.

Results

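Upper-layer *Cux2* nuclei were the nuclei of the prefrontal cortex (PFC) that carried the transcripts of excitatory neurons of the superficial cortical layers. They were chosen by their raw counts of unique molecular identifiers (UMIs, 1 per captured RNA molecule), with at least 2 UMIs of *Cux2* and 1 of *Slc17a7*, and at most 1 UMI each of *Gad1* and *Gad2* summed, of *Rorb*, of *Foxp2*, of *Tshz2* and of 7 glial, microglial and endothelial genes summed (*Mog*, *Mag*, *Pdgfra*, *Aqp4*, *Gja1*, *Csf1r* and *Flt1*). The rule found 8006 of the 66602 PFC nuclei kept (12.0%). Nuclei were kept with 200 genes or more and at most 10% mitochondrial UMIs. The levels of the 14 genes of the rule therefore describe the choice and were not tested.

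The study sequenced single nuclei of PFC and hippocampus (Hip) of 9 Kun Ming mice, an outbred stock, as 18 droplet-based libraries of the 10x Genomics 3' kit, 1 per mouse and region. Of these mice, 3 were germ-free (GF, raised without any microbes), 3 were specific pathogen-free (SPF, with a normal gut microbiota) and 3 were colonized germ-free (CGF). CGF mice were GF mice that shared a gnotobiotic isolator with an SPF mouse from juvenile age on, and GF and CGF mice stayed in isolators whereas SPF mice were housed elsewhere. Tissue was taken from every mouse at an age of 8 weeks, and no transgene was involved.

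Neurons of layers 2 and 3 send their axons mainly to other cortical areas, in the same hemisphere and, through the corpus callosum, in the other. *Cux2* encodes a homeodomain factor of the Cut family that marks these neurons from their birth and takes part in the branching of their dendrites and the formation of their spines. *Slc17a7* encodes the vesicular glutamate transporter VGLUT1, which loads glutamate into synaptic vesicles.

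The *Cux2* gene lies on the minus strand of chromosome 5 from position 121856366 to 122050102 (mm10), and the RefSeq promoters used here (GRCm38.p6) list 2 start sites for it. The promoter of the start site inside the gene is printed because it holds the sequence ATCGAT (in capitals), the core motif to which Cut-family proteins are known to bind, once, beginning at base 179 of the window chr5:122047776-122048075. The window runs from 250 bases before to 50 bases after the start site and is printed 5' to 3' on the gene's strand.
Cux2 promoter, inner start site: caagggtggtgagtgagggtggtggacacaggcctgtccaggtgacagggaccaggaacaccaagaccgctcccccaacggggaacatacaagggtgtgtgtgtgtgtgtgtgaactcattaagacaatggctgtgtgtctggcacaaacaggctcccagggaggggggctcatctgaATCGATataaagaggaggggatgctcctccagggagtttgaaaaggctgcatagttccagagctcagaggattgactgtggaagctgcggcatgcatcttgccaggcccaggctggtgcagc

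Of 32851 promoter windows of the same length, 304 (0.93%) held ATCGAT, which reads the same on both strands. The window of the outer start site held none. A match is a description of these letters and no measure of binding.

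The depth of the libraries differed between groups before any gate was applied. The libraries held 20336250 to 26949210 UMIs in SPF mice, 22213863 to 26151503 in CGF mice and 59126586 to 71463928 in GF mice. The median kept nucleus held 3037 to 3208 UMIs in SPF mice, 2353 to 3035.5 in CGF mice and 6795.5 to 7426.5 in GF mice. Mitochondrial UMIs made up 1.66 to 3.22% of a library in SPF mice, 1.28 to 2.24% in CGF mice and 0.359 to 0.594% in GF mice. The 3 GF libraries of PFC thus stood apart from the other 6 in depth and in mitochondrial share, and for PFC the absence of microbes and these library properties cannot be told apart. No 2 PFC libraries shared more than 28 barcodes, and no more than 1 barcode of a *Cux2* nucleus. Likely doublets were kept. A Scrublet score marked the top 4.57 to 7.24% of the nuclei of a library, a share set by the number of nuclei, and these held 28 to 62 *Cux2* nuclei per library.

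*Cux2* nuclei numbered 704, 986 and 730 in the SPF libraries, 892, 1193 and 1216 in the GF libraries and 747, 739 and 799 in the CGF libraries. Their median depth was 4950 to 5529.5 UMIs in SPF mice, 4238 to 5748 in CGF mice and 9891.5 to 10471 in GF mice. Nuclei with exactly 2 *Cux2* UMIs, just inside the rule, made up 30.3 to 38.1% of the members in SPF mice and 28.4 to 37.2% in CGF mice but 17.1 to 17.4% in GF mice. Another 222 to 501 nuclei per library met every other criterion with exactly 1 *Cux2* UMI, just outside the rule.

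The label held against markers that the rule did not use, given here as a description because the nuclei were chosen by their RNA. In CPM (UMIs of a gene scaled to an equal total per library), members were compared with the other *Slc17a7* nuclei of the same library, as log2 ratios with 10 CPM added to each level. *Otof*, the gene of otoferlin and a marker of superficial pyramidal neurons, stood at a mean of 126 CPM in members and 24.4 CPM in the other *Slc17a7* nuclei, a mean log2 ratio of 1.95 ± 0.24 (SD, n = 9 libraries). *Rasgrf2*, a Ras exchange factor, stood at 349 against 93.2 CPM (log2 ratio 1.80 ± 0.13). *Cux1*, the paralog of *Cux2*, stood at 369 against 141 CPM (1.33 ± 0.10), *Calb1*, encoding the calcium buffer calbindin, at 87.8 against 29.5 CPM (1.30 ± 0.17) and *Nectin3*, a cell adhesion gene, at 191 against 64.3 CPM (1.42 ± 0.14). Each of these 5 was higher in the members in 9 of 9 libraries, as were *Mdga1* (1.09), *Lamp5* (0.86) and *Wfs1* (0.79). *Cbln2*, a synaptic organizer gene, did not set the members apart and was higher in 4 of 9 libraries (mean log2 ratio 0.05).

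Most markers of layers 5 and 6 were lower in the members than in the other *Slc17a7* nuclei. *Hs3st4*, a marker of corticothalamic neurons of layer 6, stood at 111 CPM in members and 1059 CPM in the other *Slc17a7* nuclei (log2 ratio -3.22 ± 0.50), *Grik3* at 35.8 against 274 CPM (-2.68 ± 0.27) and *Tle4* at 31.2 against 142 CPM (-1.89 ± 0.13). *Fezf2*, which specifies subcortical projection neurons of layer 5, stood at 3.90 against 36.0 CPM (-1.64 ± 0.46), and *Pcp4*, a calmodulin regulator of layers 5 and 6, at 46.3 against 114 CPM (-1.19 ± 0.56). All 5 were lower in the members in 9 of 9 libraries, as were 6 of 7 layer 5 markers and 6 of 7 layer 6 corticothalamic markers in all. The other two, *Bcl6* (mean log2 ratio -0.24) and *Ntsr1* (-0.097), and *Moxd1* of layer 6b (0.0046), lay close to the other *Slc17a7* nuclei and were higher in the members in 1, 1 and 6 of 9 libraries. *Lypd1*, listed as a marker of near-projecting neurons, went the other way and was higher in the members in 9 of 9 libraries (0.58 ± 0.27). Outside the marker lists, the members were also led by *Ccbe1* (171 against 45.9 CPM, log2 ratio 1.67), *Igfn1* (111 against 27.0 CPM, 1.59) and *Stard8* (84.6 against 23.3 CPM, 1.5), all in the same direction in all 9 libraries.

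**Figure D1:**
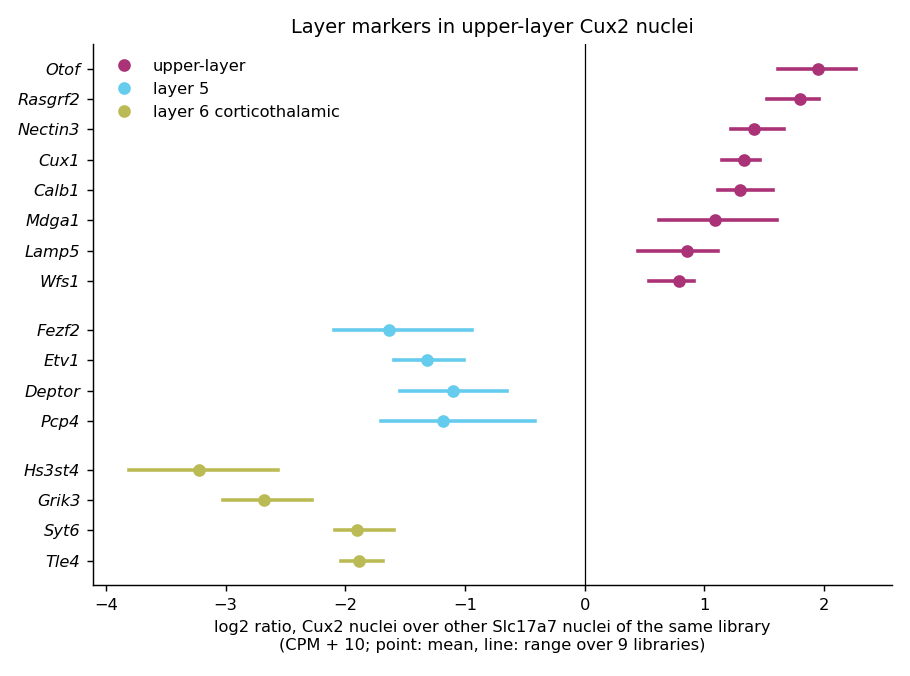
Layer markers in upper-layer *Cux2* nuclei of PFC, as the log2 ratio of the level (CPM + 10) in *Cux2* nuclei over that in the other *Slc17a7* nuclei of the same library; points are means and lines the range over 9 libraries. The upper-layer markers shown sit to the right of 0, from *Otof* at 1.95 down to *Wfs1* at 0.79, and the markers of layers 5 and 6 shown sit to its left, with *Hs3st4* at -3.22.

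Levels of 4 layer markers differed across the threshold. In SPF mice the mean level of *Rasgrf2* was 264 CPM in nuclei with 1 *Cux2* UMI, 374 CPM in those with 2 and 450 CPM in those with 5 or more, and in GF mice it was 169, 224 and 251 CPM. *Cux1* in SPF mice ran from 277 over 351 to 401 CPM. *Hs3st4* in SPF mice ran from 299 over 160 to 119 CPM, and *Fezf2* from 19.1 over 6.60 to 2.37 CPM. *Rasgrf2* and *Cux1* were each higher at 2 UMIs than at 1, and higher at 5 or more than at 2, in 9 of 9 libraries. From 2 to 5 or more UMIs, *Otof* and *Calb1* were higher in 4 of 9 libraries and *Lamp5* and *Mdga1* in 5 of 9. Nuclei with 1 UMI held more RNA of deep-layer genes than those just inside the rule.

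Markers of other cell types were present, and no marker of these lists was at 0 in any group. The summed level of 5 astrocyte markers was 87.0 to 118 CPM in *Cux2* nuclei of SPF mice, 96.1 to 114 CPM in CGF mice and 40.6 to 44.1 CPM in GF mice, against 223 to 326 CPM over all kept nuclei. The 5 markers of oligodendrocyte precursor cells (OPC) summed to 27.1 to 34.8 CPM in SPF, 21.6 to 33.1 CPM in CGF and 8.23 to 11 CPM in GF mice. Conversely, the 7 microglial markers summed to 34.2 to 46.7 CPM in SPF, 35.4 to 38.7 CPM in CGF and 66 to 70.3 CPM in GF mice, against 63.9 to 78.5, 55.3 to 78.2 and 110 to 120 CPM over all kept nuclei. The median log2 difference of these 7 genes from SPF to GF was -0.26, within a range of -0.94 to 3.14 (*P2ry12*). The microglial markers thus did not rise as a set. The 2 hemoglobin genes summed to 4.98 to 10.8, 10.8 to 26.3 and 26.6 to 49.8 CPM in *Cux2* nuclei of the same 3 groups. The 5 oligodendrocyte markers summed to 74.7 to 121 CPM in SPF, 48.2 to 85.7 CPM in CGF and 108 to 118 CPM in GF mice, and the 8 interneuron markers to 129 to 248, 129 to 180 and 110 to 146 CPM, against 682 to 856 CPM over all kept nuclei. The part of such RNA in the differences between groups below was not tested. The rule allowed at most 1 UMI of the excluded genes at any depth, which was a stricter limit per UMI in the deeper GF nuclei.

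The first comparison asked whether the share of *Cux2* nuclei in PFC differed between groups. They made up 12.3, 14.3 and 9.93% of the kept nuclei in SPF mice, 11.3, 15.6 and 13.4% in GF mice and 10.3, 10.2 and 10.6% in CGF mice. The mean share was 12.2 ± 2.20% (SD, n = 3) in SPF, 13.5 ± 2.14% in GF and 10.3 ± 0.201% in CGF mice. The difference among the 3 groups did not exceed the spread between mice (exact permutation test over all assignments of the mice, p = 0.168). GF mice exceeded SPF mice by 1.27 percentage points (two-sided exact permutation p = 0.5) and exceeded CGF mice by 3.12 points (p = 0.1, the smallest that 3 mice against 3 allow), and CGF fell below SPF by 1.85 points (difference -1.85, p = 0.4).

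The direction changed with depth. When every nucleus was thinned to 2500 UMIs before the gate and shallower nuclei were left out, the shares were 8.55 ± 1.84% in SPF, 3.87 ± 0.533% in GF and 7.92 ± 1.48% in CGF mice, so that GF was below SPF and CGF (differences -4.68 and -4.04 points, exact permutation p = 0.1 for both, and p = 0.0393 over the 3 groups). This cut left 3452 to 4549 nuclei per library in SPF, 6223 to 7228 in GF and 3544 to 4281 in CGF mice. Before it, the libraries held 5710 to 7353, 7640 to 9055 and 7256 to 7560 kept nuclei. As a share of the *Slc17a7* nuclei at that depth, the means were 14.5, 10.3 and 14.4% in SPF, GF and CGF mice (exact permutation p = 0.1 over the 3 groups). When whole libraries were thinned to an equal mean number of UMIs per nucleus instead, the differences of GF were -3.91 points from SPF and -2.99 points from CGF (exact permutation p = 0.1 for both, and p = 0.0536 over the 3 groups). With at least 3 *Cux2* UMIs and no thinning, GF lay above SPF by 2.94 points and above CGF by 4.23 points. The exact permutation p was 0.2 and 0.1 for these differences, and 0.0536 over the 3 groups. The levels of the rule's own genes per UMI cannot be compared between groups, because a fixed number of UMIs admits nuclei with lower CPM from the deeper GF libraries, and they are given only as a description of the members chosen. *Cux2* stood at 677, 646 and 639 CPM in SPF, 534, 498 and 497 CPM in GF and 617, 623 and 695 CPM in CGF mice. *Slc17a7* stood at 459, 494 and 442 CPM in SPF, 280, 326 and 307 CPM in GF and 365, 446 and 444 CPM in CGF mice.

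**Figure D2:**
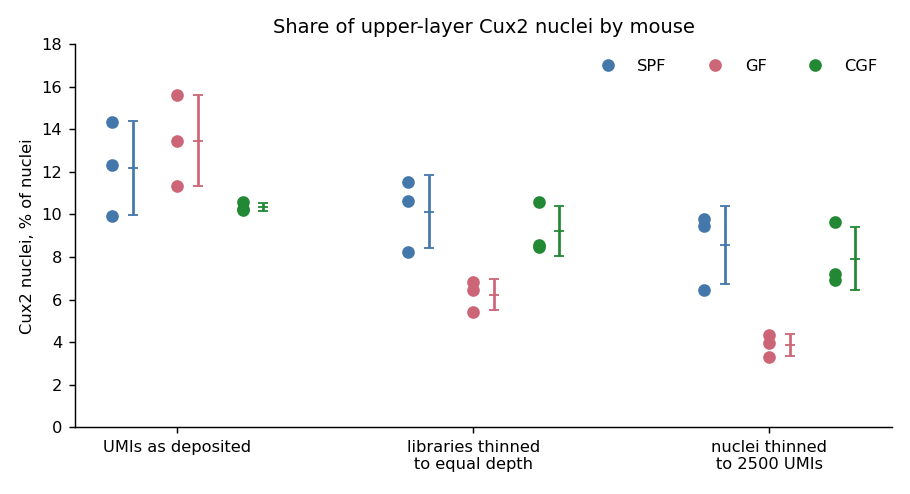
Share of upper-layer *Cux2* nuclei among the nuclei of each PFC library (points, 1 per mouse) with mean and SD (bars) per group, for the UMIs as deposited, for libraries thinned to equal mean depth and for nuclei thinned to 2500 UMIs. The 3 GF mice lie at 11.3 to 15.6% with the UMIs as deposited and at 3.29 to 4.34% after thinning of nuclei, below all SPF and CGF mice.

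To compare expression, the UMIs of the *Cux2* nuclei were summed per library and tested across the 9 mice with the quasi-likelihood test of edgeR, with Benjamini-Hochberg adjustment over 13899 genes. Levels below are CPM scaled by the trimmed mean of M-values (TMM), and fold changes are given as log2 with their standard error. Between GF and SPF mice, 8088 genes passed the threshold of 0.05 (58.2% of the genes tested), 4125 higher (29.7%) and 3963 lower (28.5%) in GF, and 3611 of them changed by more than 2-fold. Between GF and CGF mice, 7929 genes passed (57.0%), 4066 higher (29.3%) and 3863 lower (27.8%) in GF. Between CGF and SPF mice, 26 genes passed (0.187%), 18 higher and 8 lower in CGF, and 1715 genes had an unadjusted p under 0.05 (12.3%). The first 2 comparisons share the GF libraries and each therefore carries the depth and mitochondrial differences of those libraries.

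Of the 5 largest rises from SPF to GF that the naming rule gave in *Cux2* nuclei, 4 were transcripts annotated on the strand opposite to a known gene. *Nrg3os*, the antisense RNA of the neuregulin gene *Nrg3*, stood at 6.31, 7.27 and 7.74 CPM in SPF, 571, 570 and 531 CPM in GF and 9.68, 5.10 and 9.04 CPM in CGF mice (GF over SPF log2 6.29 ± 0.17, adjusted p = 3.9e-11). *Sorbs2os* stood at 18.9, 14.7 and 13.5 CPM in SPF, 736, 675 and 550 CPM in GF and 16.8, 14.6 and 26.4 CPM in CGF mice. GF did not overlap with the other groups in either gene, which the naming rule required. Over all genes tested, 65.8% did not overlap between GF and SPF, 62.3% between GF and CGF and 15.4% between CGF and SPF. *Rsf1os1* (log2 5.46 ± 0.24) and *Far1os* (5.42 ± 0.24) ranked between both, with *Sorbs2os* at 5.38 ± 0.21. *Slc24a5*, a gene of a potassium-dependent sodium and calcium exchanger known from pigment cells, also rose (5.58, 3.14 and 0.749 CPM in SPF against 116, 122 and 101 CPM in GF, log2 5.15 ± 0.33).

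As a class, 574 of the 802 genes of the antisense biotype tested were higher in GF than in SPF (71.6%) and 56 were lower, with a median log2 difference of 2.69, where the median over all genes tested was 0.0068. The files held 2778 antisense genes. The filter on low counts admits a gene that is high in a single group. Antisense genes high only in GF could thus enter, which tilts this share and median upward. All antisense genes, tested or not, together made up 4559 to 4965 CPM of the *Cux2* nuclei of SPF mice, 5000 to 5743 CPM in CGF mice and 16408 to 18906 CPM in GF mice. Protein-coding genes were split by their overlap with coding genes of the opposite strand in the GENCODE annotation. Of 261 with another coding gene on the opposite strand over at least 80% of their span, 135 were higher (51.7%) and 49 lower in GF (median 0.62), whereas of 9671 with no such gene over any part of their span, 2359 were higher (24.4%) and 2999 lower (31%, median -0.07). In CGF against SPF, 2 of the 802 antisense genes were higher and none was lower. The sources used here do not say whether counting used strand. How far reads of a gene entered the count of its antisense partner was not tested.

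**Figure D3:**
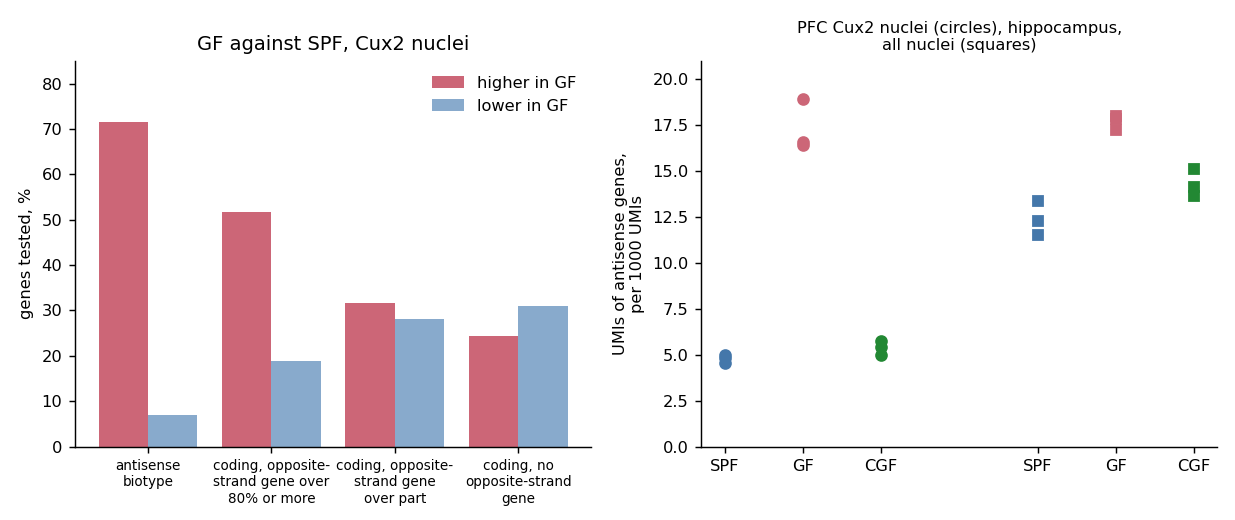
Left, share of genes tested that were higher (red) or lower (blue) in GF than in SPF *Cux2* nuclei, for antisense genes and for coding genes by how much of their span carries another coding gene on the opposite strand. Right, UMIs of antisense genes per 1000 UMIs by mouse, in PFC *Cux2* nuclei (circles) and in all nuclei of the hippocampal libraries (squares). The share of genes that were higher falls from 71.6% in antisense genes to 24.4% in coding genes without an opposite-strand coding gene. The filter on low counts admits genes that are high only in GF, which can raise the share of higher genes. The GF mice lie above the SPF and CGF mice in both regions, with a smaller gap in hippocampus. SPF and CGF mice lie at 11514 to 15137 CPM there, against 4559 to 5743 CPM in PFC *Cux2* nuclei.

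Transcripts that overlap or resemble ribosomal RNA fell in GF mice. *Gm42418*, which spans ribosomal RNA sequence, stood at 8541, 8124 and 13251 CPM in SPF, 139, 94.8 and 141 CPM in GF and 10515, 17819 and 10880 CPM in CGF mice. *Cmss1* fell (2027, 2019 and 3139 CPM in SPF against 74.3, 63.7 and 65.4 CPM in GF, log2 change -5.14 ± 0.27), as did *Lars2*, a mitochondrial leucyl-tRNA synthetase gene (366, 412 and 650 against 38.6, 31.8 and 36.7 CPM, -3.74 ± 0.27) and *AY036118*, so that all 4 transcripts of this list fell. *Il31ra*, an interleukin receptor subunit gene, fell most among the genes that the naming rule allowed, from 70.9, 67.9 and 94.6 CPM in SPF to 0.804, 0.817 and 0.716 CPM in GF mice (-6.61 ± 0.34), with 142, 170 and 78.3 CPM in CGF mice. *Lrrc45* (-3.93 ± 0.14) and *Ccl27a* (-3.34 ± 0.20) were the other leading genes that fell. In GF against CGF, *P2ry14*, a receptor for UDP-sugars, joined the leading genes (249, 207 and 184 CPM in GF, 6, 5.56 and 9.04 CPM in CGF, log2 4.96 ± 0.20).

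A pair of the leading genes was also read in other nuclei of these libraries. *Nrg3os* stood at 485 to 537 CPM (not TMM-scaled) in *Rorb* nuclei and at 480 to 541 CPM in the remaining *Slc17a7* nuclei of GF mice, against 528, 518 and 486 CPM in *Cux2* nuclei. *Il31ra* stood at 0.899 to 0.998 CPM in *Rorb* nuclei of GF mice and 77.5 to 127 CPM in those of SPF mice, and at 1.57 to 2.16 CPM in the remaining *Slc17a7* nuclei of GF mice, against 0.656 to 0.744 CPM in their *Cux2* nuclei. In both genes GF and SPF mice did not overlap in *Rorb* nuclei either. Genes of the antisense biotype summed to 4589 to 5196 CPM in *Rorb* nuclei of SPF mice and 14933 to 17792 CPM in those of GF mice.

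Among 13 upper-layer markers, 3 were higher and 6 lower in GF than in SPF *Cux2* nuclei (median log2 difference -0.34), where 29.7% and 28.5% of all genes were. *Otof* fell from 181, 167 and 132 CPM in SPF to 41.1, 60.4 and 53.5 CPM in GF mice, without overlap, and stood at 147, 150 and 175 CPM in CGF mice (GF over SPF log2 -1.63 ± 0.15, adjusted p = 6.0e-07). *Rasgrf2* fell from 364, 449 and 398 CPM to 265, 287 and 249 CPM (-0.60 ± 0.14). *Pou3f3*, a POU-domain factor of upper-layer neurons, fell from 40.8, 51.9 and 43.9 CPM to 18.7, 25.8 and 22.8 CPM (-1.02 ± 0.15), whereas its paralog *Pou3f2* (also called Brn2) rose from 15.5, 16.5 and 14 CPM to 28.6, 33.8 and 31 CPM (1.01 ± 0.18). *Mdga1*, a regulator of neuroligin binding, rose from 26.2, 25.4 and 37.7 CPM to 53.3, 84.2 and 88.7 CPM (1.35 ± 0.21).

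*Cux1* stood at 327, 389 and 381 CPM in SPF and 374, 439 and 433 CPM in GF mice, a difference that did not pass (log2 0.18 ± 0.12, adjusted p = 0.19). *Calb1* stood at 87.6, 109 and 75.6 CPM in SPF and 81.1, 81.8 and 81.1 CPM in GF mice (-0.16 ± 0.13, adjusted p = 0.28). The groups overlapped in both genes, and neither gene passed between CGF and SPF. The upper-layer markers thus did not all move one way.

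Markers of other layers and cell types also moved within *Cux2* nuclei. Of 7 layer 5 markers, 2 rose from SPF to GF, *Bcl6*, a transcriptional repressor (9.22, 6.11 and 13.0 CPM in SPF against 21.1, 23.6 and 25.1 CPM in GF, log2 1.34 ± 0.22), and *Pcp4* (1.04 ± 0.14). Of 7 markers of layer 6 corticothalamic neurons, 1 was higher (*Zfpm2*, 0.58 ± 0.10) and 3 were lower, with *Hs3st4* at 144, 85.4 and 169 CPM in SPF and 68.1, 60.5 and 82.8 CPM in GF (-0.91 ± 0.23). *Tbr1*, a T-box factor of deep-layer neurons and 1 of 8 pan-excitatory markers, fell from 34.5, 36.3 and 45.7 CPM to 16.3, 17.8 and 17.6 CPM (-1.17 ± 0.17). In that list *Neurod2* fell as well (-0.39 ± 0.12) and *Neurod6* rose (0.46 ± 0.18, but -0.16 once the trend with gene length and GC content was removed), both factors of neuronal differentiation. Of 2 near-projecting markers tested *Lypd1* fell (-1.10 ± 0.21), of 3 layer 4/5 markers *Whrn* (-1.43 ± 0.33) and *Rspo1* (-1.10 ± 0.44) fell, and neither of 2 layer 6b markers passed. The rule's limits on *Rorb*, *Foxp2* and *Tshz2* were stricter per UMI in the deeper GF nuclei. The part of these limits in the falls of markers of these layers was not tested.

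All 3 astrocyte markers tested fell, among them *Slc1a3* (25, 31 and 37.2 CPM in SPF against 14.5, 12.6 and 15.0 CPM in GF, log2 -1.15 ± 0.19) and *Aldh1l1* (-0.68 ± 0.21), and so did both OPC markers tested, *Olig1* (-1.95 ± 0.30) and *Vcan* (-1.66 ± 0.26). Of 5 oligodendrocyte markers, 3 rose, led by *Cldn11* (1.58 ± 0.29). Of 7 microglial markers, 3 rose and 1 fell, with the purinergic receptor gene *P2ry12* up from 4.37, 4.46 and 3.49 CPM to 38.9, 37.8 and 33.2 CPM (3.14 ± 0.18). The hemoglobin gene *Hbb-bs* rose from 0.728, 0.330 and 0.749 CPM to 41.2, 21.5 and 37.7 CPM (5.84 ± 0.58), and *Hba-a1* rose by 0.92 ± 0.33. Of 8 interneuron markers, *Slc32a1* rose (1.27 ± 0.29) and *Adarb2* (-1.19 ± 0.30, but 0.60 with the gate at equal depth) and *Pvalb* (-0.51 ± 0.21) fell, and of 2 endothelial and mural markers *Pecam1* rose (1.39 ± 0.35) and *Rgs5* fell (-1.02 ± 0.37). None of the 2 fibroblast markers passed the filter on low counts. The rule's limits on glial and interneuron genes were stricter per UMI in the deeper GF nuclei, which can lower related markers there. The part of these limits in the falls of astrocyte, OPC and interneuron markers was not tested.

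Genes of the glutamate synapse moved in both directions between GF and SPF. Of 9 AMPA and kainate receptor subunits, 4 were higher and 3 lower (median -0.04). *Gria2*, the subunit that makes AMPA receptors impermeable to calcium, rose from 1206, 1215 and 1288 CPM in SPF to 1668, 1970 and 1632 CPM in GF mice (0.51 ± 0.11) and stood at 1339, 1370 and 1260 CPM in CGF mice. *Grik2* (0.88 ± 0.14) and *Gria3* (0.76 ± 0.13) rose as well, while *Grik3* (-1.01 ± 0.21), *Grik4* (-0.46 ± 0.13) and *Gria1* (-0.35 ± 0.12) fell. Of 6 NMDA receptor subunits, 1 was higher (*Grin2d*, 1.32 ± 0.28, at 8.49 to 16.2 CPM in GF) and 1 lower (*Grin2c*, -2.12 ± 0.29, at 1.23 to 1.38 CPM in GF), both low. The major subunits did not pass, with *Grin2a* at 1738, 1925 and 2236 CPM in SPF and 1691, 2112 and 2188 CPM in GF (0.02 ± 0.14, adjusted p = 0.9) and *Grin2b* at 2377, 2327 and 2534 against 1976, 2204 and 2622 CPM (-0.09 ± 0.13, adjusted p = 0.57). Of 7 metabotropic receptors, 3 were higher and 2 lower, among them the presynaptic autoreceptor *Grm2*, which fell from 49.3, 56.0 and 63.4 CPM to 11.9, 13.3 and 10.0 CPM (-2.26 ± 0.17), and *Grm5*, which rose (0.78 ± 0.13).

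Of 12 GABA-A receptor subunits, 5 were higher and 2 lower in GF than in SPF (median 0.27). *Gabrb2* rose from 226, 297 and 255 CPM to 466, 482 and 484 CPM (0.88 ± 0.13), whereas *Gabra5*, a subunit of extrasynaptic receptors, fell (-0.62 ± 0.16).

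Among voltage-gated channels, the counts were as follows. Of 8 calcium channel genes, none was higher and 4 were lower in GF (median -0.28). These were the 3 T-type channels *Cacna1h* (49.0, 46.4 and 39.9 CPM in SPF against 17.1, 18.6 and 17.8 CPM in GF, log2 -1.34 ± 0.13), *Cacna1g* (-1.20 ± 0.17) and *Cacna1i* (-1.12 ± 0.11), which open near the resting potential, and the N-type channel *Cacna1b* (-0.38 ± 0.09). Of 8 sodium channel genes, 1 was higher and 4 lower, among them *Scn1a* (-0.74 ± 0.12) and *Scn2a* (-0.50 ± 0.12). Of 20 potassium and HCN channel genes, 7 were higher and 7 lower, with *Kcna1* up from 20.1, 23.3 and 25.2 CPM to 52.7, 77.1 and 59.3 CPM (1.46 ± 0.15). *Kcnq5* (0.96 ± 0.14) and *Kcnh7* (0.88 ± 0.16) rose too.

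Of 30 synaptic adhesion genes, 15 were higher and 6 lower in GF than in SPF (median 0.30). *Cadm2* rose from 2126, 2709 and 2720 CPM to 5604, 6283 and 5880 CPM (1.23 ± 0.17), *Lrrtm4* by 1.12 ± 0.19 and *Il1rapl1* by 1.12 ± 0.15. *Slitrk3*, a partner of presynaptic phosphatases at inhibitory synapses, fell from 78.6, 73.2 and 79.6 CPM to 21.3, 24.3 and 20.2 CPM (-1.81 ± 0.12). Of 32 axon guidance genes, 11 were higher and 6 lower (median 0.30), with the Slit receptor *Robo2* up (219, 282 and 264 against 562, 694 and 673 CPM, 1.33 ± 0.14) and the netrin receptor *Unc5a* down (-1.01 ± 0.15). *Robo1* stood at 237, 267 and 222 CPM in SPF and 328, 281 and 305 CPM in GF (0.33 ± 0.15, adjusted p = 0.065) and *Unc5d*, a netrin receptor of superficial neurons, at 696, 873 and 745 against 947, 961 and 660 CPM (0.15 ± 0.16, adjusted p = 0.45), and neither passed.

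Of 26 vesicle release genes, 6 were higher and 10 lower in GF than in SPF (median -0.25). The synaptobrevin *Vamp2* fell from 195, 213 and 195 CPM to 90.1, 88.3 and 87.9 CPM (-1.18 ± 0.10), the complexin *Cplx1* from 71.4, 82.1 and 80.4 CPM to 28.1, 29.8 and 30.2 CPM (-1.41 ± 0.17) and the priming factor *Unc13a* by 1.18 on the log2 scale (-1.18 ± 0.11). Of 16 genes of the postsynaptic density, 3 were higher and 4 lower (median 0.01), with the kinase subunit *Camk2b* down from 610, 632 and 601 CPM to 181, 203 and 210 CPM (-1.63 ± 0.13) and the scaffolds *Homer1* (1.10 ± 0.15), *Dlg2* (0.94 ± 0.15) and *Dlg1* (0.76 ± 0.10) up.

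Immediate early genes, which neurons induce upon activity, showed 3 higher and 3 lower of 19 between GF and SPF (median 0.23). *Fos* stood at 21.8, 6.94 and 7.49 CPM in SPF and 24.9, 10.2 and 15.1 CPM in GF mice (0.49 ± 0.42, adjusted p = 0.34), *Arc* at 53.4, 51.9 and 45.9 against 68.6, 46.4 and 47.7 CPM (0.10 ± 0.17, adjusted p = 0.64) and *Nr4a1* at 64.6, 64.1 and 72.1 against 93.3, 71.6 and 73.2 CPM (0.25 ± 0.17, adjusted p = 0.24). GF and SPF mice overlapped in all 3 genes. *Egr1* fell from 88.3, 83.4 and 108 CPM to 69.6, 45.4 and 70.6 CPM (-0.59 ± 0.17) and *Egr3* by 0.67 on the log2 scale (-0.67 ± 0.16), while *Homer1*, *Junb* (0.94 ± 0.31) and *Dusp1* (0.72 ± 0.22) rose. *Bdnf*, the activity-dependent neurotrophin, stood at 52.9, 42.6 and 52.2 CPM in SPF, 70.0, 60.4 and 53.7 CPM in GF and 31.9, 33.8 and 45.9 CPM in CGF mice, which passed between GF and CGF (0.72 ± 0.15) but not between GF and SPF (0.32 ± 0.15, adjusted p = 0.077). Of 7 genes of the glucocorticoid response tested, 1 rose, *Fkbp5*, a co-chaperone of the receptor that glucocorticoids induce, from 15.0, 17.3 and 27.2 CPM to 59.6, 85.8 and 76.3 CPM (1.91 ± 0.23), with 13.2, 24.1 and 21.4 CPM in CGF mice.

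Housekeeping groups split as well. Of 77 cytosolic ribosomal protein genes, 7 were higher and 46 lower in GF than in SPF (median -0.73), with *Rpl28* at 39.6, 33.0 and 35.2 CPM in SPF against 1.38, 1.47 and 1.35 CPM in GF mice (-4.66 ± 0.21). Many of these genes have near-identical pseudogenes, so their counts are uncertain. Of 75 nuclear genes of oxidative phosphorylation, 29 were higher and 17 lower (median 0.20). *Cox7c* rose from 7.28, 7.60 and 7.99 CPM to 50.7, 41.8 and 39.6 CPM (2.53 ± 0.18) and *Atp5o* by 2.17 ± 0.15, while *Atp5h* (-1.59 ± 0.14) and *Ndufs7* (-1.51 ± 0.14) fell. Of 12 heat shock chaperones, 4 were higher and 5 lower, among them *Hsp90ab1* (-1.61 ± 0.14), and of 6 abundant nuclear noncoding RNAs 3 were higher, led by *Malat1* (36168, 34431 and 36855 CPM in SPF against 86424, 82875 and 77909 CPM in GF, 1.20 ± 0.17), and 1 was lower. Of 15 neuromodulator receptors, *Adrb1* rose (1.02 ± 0.21) and *Oprl1* (-0.81 ± 0.26) and *Htr2a* (-0.42 ± 0.17) fell, and of 5 neurotrophins and their receptors *Ntrk2* rose (0.44 ± 0.12). In all these lists, the GF against SPF differences stand beside a background in which 58.2% of all genes passed.

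Between CGF and SPF mice, no member of the lists of marker, synaptic, channel and housekeeping genes passed, where 0.187% of all genes tested did, and the CGF mice lay close to SPF mice in depth and mitochondrial share. The coding genes among the 26 that passed are given by name. The largest difference was in *Sim2*, a transcription factor gene of the bHLH-PAS family on chromosome 16 (94084931 to 94127032, plus strand, mm10). *Sim2* stood at 0 CPM in all 3 SPF mice, 0.345, 0.408 and 0.159 CPM in GF mice and 113, 134 and 197 CPM in CGF mice, which came to 0, 10 and 1988 UMIs in the summed *Cux2* nuclei. Against a floor of 3 UMIs over the 3 SPF libraries, *Sim2* was at least 697-fold higher in CGF mice. It was as high in the other nuclei of the CGF libraries, at 116, 137 and 246 CPM (not TMM-scaled) in *Rorb* nuclei and 116, 137 and 231 CPM over all kept nuclei, so that the difference was not confined to *Cux2* nuclei.

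*Psat1*, which encodes phosphoserine aminotransferase of the serine synthesis pathway, was outside the naming rule because of its low level and was singled out after its values were seen. It stood at 4.61, 5.94 and 5.24 CPM in SPF, 31.7, 32.1 and 27.0 CPM in GF and 18.2, 19.9 and 19.8 CPM in CGF mice, so that the 3 groups did not overlap (CGF over SPF log2 1.85 ± 0.18, edgeR adjusted p = 0.00035). Over all kept PFC nuclei *Psat1* stood at 8.25 to 8.54, 25.8 to 26.9 and 19.6 to 23.2 CPM (not TMM-scaled) in the same order. The difference was thus not confined to *Cux2* nuclei. Its promoter (chr19:15925010-15925309, minus strand, GRCm38.p6) is shown because it holds 3 copies of CCAAT, the box bound by the factor NF-Y (in capitals).
Psat1 promoter, outer start site: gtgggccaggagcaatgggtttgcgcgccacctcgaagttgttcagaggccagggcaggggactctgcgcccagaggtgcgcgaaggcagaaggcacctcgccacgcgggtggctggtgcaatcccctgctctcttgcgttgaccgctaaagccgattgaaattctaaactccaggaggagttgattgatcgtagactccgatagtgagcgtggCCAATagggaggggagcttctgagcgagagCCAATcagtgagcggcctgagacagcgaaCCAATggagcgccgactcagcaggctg

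Of the same 32851 windows, 37.41% held CCAAT or its reverse complement ATTGG and 3.37% held 3 or more. The window of the other *Psat1* start site held none.

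*Mid1*, a ubiquitin ligase gene of the X chromosome that reaches into the pseudoautosomal region in the mouse, rose from 75.2, 39.3 and 58.4 CPM in SPF to 153, 313 and 217 CPM in CGF mice (log2 1.99 ± 0.24, edgeR adjusted p = 0.0031) and stood at 194, 192 and 227 CPM in GF mice. *Iqgap2*, a scaffold of the actin skeleton, rose from 82.0, 94.8 and 106 CPM to 165, 168 and 172 CPM (0.83 ± 0.15, adjusted p = 0.036) and stood at 148, 172 and 227 CPM in GF mice. In both genes GF and CGF mice overlapped and lay above all SPF mice. *Cdk8*, the kinase of the Mediator complex, rose in CGF (222, 204 and 233 CPM in SPF against 313, 429 and 315 CPM, 0.68 ± 0.13, adjusted p = 0.049) but fell in GF mice (132, 125 and 141 CPM, -0.73 ± 0.13). *Ercc6*, a gene of transcription-coupled repair, stood at 52.2, 52.7 and 53.4 CPM in SPF, 42.3, 52.7 and 52.0 CPM in GF and 80.4, 78.3 and 86.6 CPM in CGF mice (CGF over SPF 0.63 ± 0.11, adjusted p = 0.036).

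Among the genes that fell, *Tmem59l*, a neuronal membrane protein gene, went from 95.6, 84.4 and 104 CPM in SPF to 38.3, 44.7 and 60.0 CPM in CGF mice (-0.99 ± 0.15, adjusted p = 0.015), with 44.7, 49.1 and 43.5 CPM in GF mice. *Pmepa1*, an inhibitor of TGF-beta signaling, went from 126, 121 and 131 CPM to 65.2, 74.9 and 82.3 CPM (-0.76 ± 0.11, adjusted p = 0.015), with 60.7, 75.6 and 68.8 CPM in GF. *Atraid* (-0.80 ± 0.15) and *Fscn1*, an actin-bundling gene (-0.60 ± 0.11), fell too. *Asah2*, a neutral ceramidase gene also singled out after its values were seen, stood at 30.1, 21.8 and 14.2 CPM in SPF, 1.38, 1.80 and 1.99 CPM in GF and 4.26, 2.78 and 4.76 CPM in CGF mice (-2.48 ± 0.30, adjusted p = 0.0029). Over all kept PFC nuclei it stood at 13.3 to 23.5, 3.32 to 3.63 and 6.42 to 8.45 CPM (not TMM-scaled) in the same order, so its difference was not confined to *Cux2* nuclei. In *Tmem59l*, *Pmepa1* and *Asah2*, GF and CGF mice both lay below all SPF mice. For *Tmem59l* and *Pmepa1*, as for *Mid1* and *Iqgap2*, the naming rule required that CGF and SPF mice did not overlap. In all these genes GF and CGF were set against the same 3 SPF mice. A deviation of those SPF mice would by itself put GF and CGF on the same side. Over all genes tested, 65.8% did not overlap between GF and SPF.

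**Figure D4:**
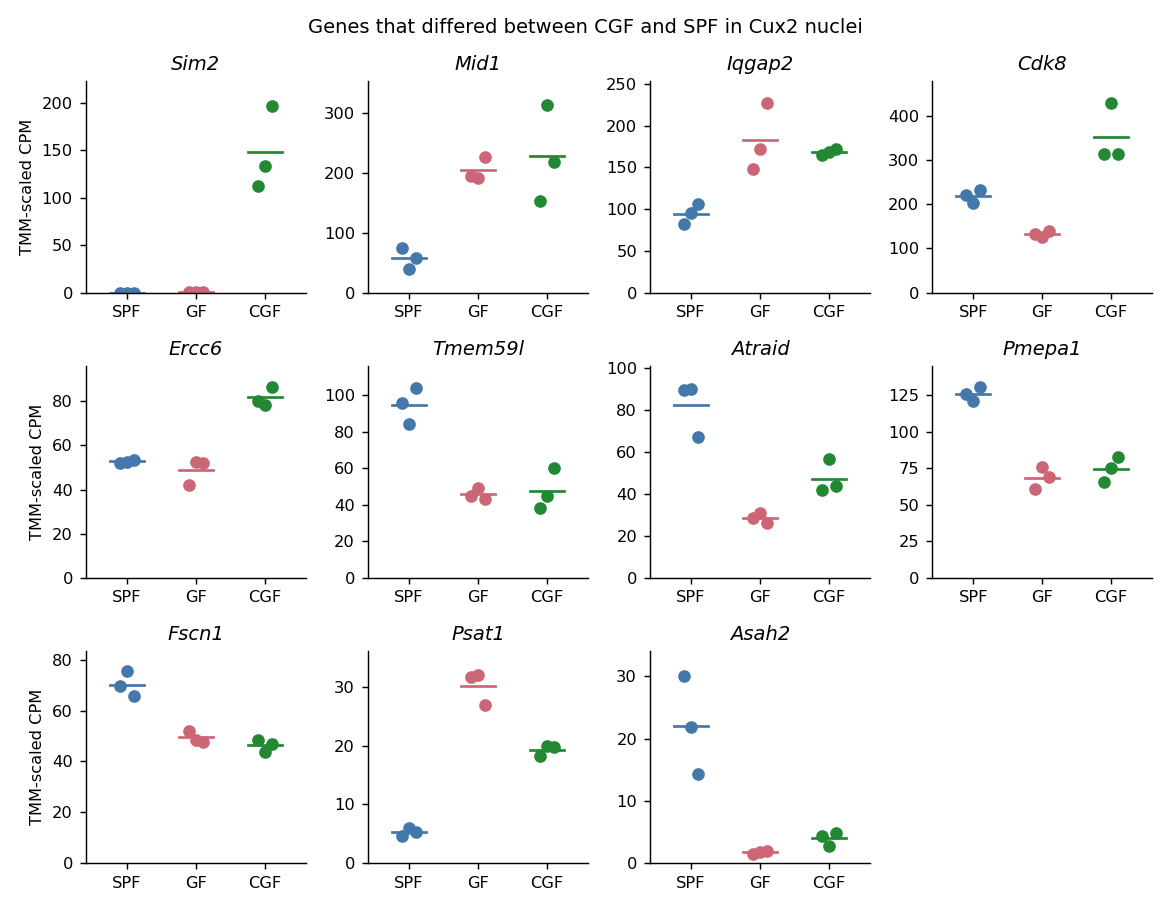
TMM-scaled CPM in the summed *Cux2* nuclei of each mouse (points) with the group mean (line), for the 9 genes that the naming rule gave between CGF and SPF and for *Psat1* and *Asah2*. *Sim2* is near 0 in 6 mice and at 113 to 197 CPM in the 3 CGF mice, and in most other panels the GF mice lie on the same side of SPF as the CGF mice, except for *Cdk8* and *Ercc6*. Both groups are set against the same 3 SPF mice, and the genes were chosen for their difference between CGF and SPF.

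The genes above differed in how firmly they passed. *Sim2* passed in all 19 alternative settings in which it was tested and *Mid1* in all 18, *Tmem59l* and *Pmepa1* in 17 of 19, *Iqgap2* in 13 of 18, *Atraid* in 10 of 18, *Fscn1* in 9 of 19 and *Cdk8* and *Ercc6* in 8 of 19. The number of genes that passed ranged from 5 without SPF mouse 30 over 8 without CGF mouse 17 and 15 without SPF mouse 31 to 247 without CGF mouse 18. The split moved from 18 higher and 8 lower (69.2% higher) to 94 and 153 without CGF mouse 18 (38.1%), 199 and 205 with no filter on low counts (49.3%) and 49 and 38 with DESeq2 (56.3%). The other genes that passed were *Wnt2* (1.94 ± 0.27), *C4b* (2.28 ± 0.39), *Gmip* (1.34 ± 0.22), *Gm765* (1.36 ± 0.22), *Wdr4* (1.0 ± 0.15), *Kbtbd11* (0.94 ± 0.15) and *Emc10* (0.90 ± 0.16), which rose, *Vill* (-3.61 ± 0.50), *Gm45844* (-1.80 ± 0.28) and *Rsph3b* (-1.24 ± 0.21), which fell, and 5 noncoding genes, all higher in CGF.

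To set the change in *Cux2* nuclei beside that in a neighbouring type, the change between groups was compared with that in *Rorb* nuclei of the same libraries (3733 nuclei with at least 2 UMIs of *Rorb*, a marker of the middle layers, and at most 1 of *Cux2*), as an interaction in an edgeR fit of 18 sums with the mouse as a block. What a whole library shares enters both sums. Between GF and SPF, the change differed in 205 of 14302 genes (1.43%), 70 more positive and 135 more negative in *Cux2* nuclei, and 1662 genes had an unadjusted p under 0.05. Of the 203 genes that differed and were tested in both types, 106 had log2 changes of the same sign and 97 of opposite signs, whether or not these passed. The change passed in both types in 66 genes, of which 10 had opposite signs. The split changed with the gate and the neighbour, to 11 more positive and 113 more negative with the gate on nuclei thinned to 2500 UMIs (8.9% positive, against 34.1%), 65 and 61 against *Foxp2* nuclei (51.6%) and 2 and 12 without the mouse as block (14.3%).

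The *Rorb* nuclei numbered 204, 340 and 295 in SPF, 654, 747 and 678 in GF and 298, 312 and 205 in CGF mice. The 4 markers of layers 4 and 5 summed to 555 to 612 CPM in *Rorb* nuclei of SPF, 1064 to 1195 CPM in GF and 409 to 683 CPM in CGF mice. The *Rorb* nuclei also held much RNA of deep-layer genes. In the same order, the 7 layer 6 corticothalamic markers summed to 871 to 932, 710 to 793 and 960 to 1075 CPM. In *Cux2* nuclei they summed to 270 to 376, 231 to 283 and 276 to 336 CPM. The 7 layer 5 markers summed to 321 to 406, 355 to 377 and 307 to 371 CPM in *Rorb* nuclei. In *Cux2* nuclei they summed to 109 to 124, 132 to 171 and 95.3 to 126 CPM. The part of these values in the differences between the types was not tested.

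*Pcp4*, the calmodulin regulator of deep layers, rose in *Cux2* nuclei from 35.9, 35.8 and 37.7 CPM in SPF to 85.6, 59.5 and 80.1 CPM in GF (log2 1.04 ± 0.14). In *Rorb* nuclei it did not pass, and stood at 92.1, 142 and 129 CPM in SPF and 113, 78.1 and 118 CPM in GF mice (difference of log2 changes 1.32 ± 0.13, adjusted p = 6.1e-07). CGF mice lay at 34.9, 28.7 and 29.3 CPM in *Cux2* nuclei. *Pigk*, a subunit of the transamidase that attaches GPI anchors, showed the reverse, with 74.8, 74.8 and 84.9 CPM in SPF and 80.9, 81.6 and 84.4 CPM in GF *Cux2* nuclei, but 87.4, 83.3 and 76.3 CPM in SPF and 267, 236 and 228 CPM in GF *Rorb* nuclei (difference -1.47 ± 0.12, adjusted p = 1.0e-08). *Pcp4* passed in all 17 and *Pigk* in all 16 alternatives in which they were tested, including the gate at equal depth, where the differences were 1.24 and -1.26.

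*Oprm1*, the mu-opioid receptor gene, rose in both types and more in *Cux2* nuclei, from 13.1, 9.58 and 10.7 CPM in SPF to 129, 125 and 114 CPM in GF (log2 3.48 ± 0.13), and in *Rorb* nuclei from 13.0, 21 and 26.5 CPM to 114, 96.4 and 97.6 CPM (difference 1.21 ± 0.22, adjusted p = 0.0027). *Prodh*, encoding proline dehydrogenase, rose from 6.55, 8.42 and 5.99 CPM to 62.4, 48.7 and 53.4 CPM in *Cux2* nuclei and from 13.0, 10.8 and 14.5 CPM to 45.0, 29.0 and 33.2 CPM in *Rorb* nuclei (1.48 ± 0.26, adjusted p = 0.0019). The SPF levels of both genes rested on few UMIs. *Prodh* had 27, 51 and 24 UMIs in *Cux2* nuclei and 14, 19 and 23 in *Rorb* nuclei of SPF mice. *Oprm1* had 54, 58 and 43 UMIs in *Cux2* nuclei and 14, 37 and 42 in *Rorb* nuclei. *Rps6ka2*, a ribosomal S6 kinase gene, stood at 122, 135 and 171 CPM in SPF and 149, 143 and 153 CPM in GF *Cux2* nuclei and fell in *Rorb* nuclei from 38.1, 35.7 and 49.8 CPM to 27.0, 22.8 and 23.3 CPM (0.83 ± 0.16, adjusted p = 0.0047). *Pkhd1* fell in both, and less in *Cux2* nuclei (0.83 ± 0.18, adjusted p = 0.013). These 4 genes passed less firmly than *Pcp4* and *Pigk*, *Prodh* in 12 and *Oprm1* in 11 of 16 alternatives and *Rps6ka2* and *Pkhd1* in 12 of 17. With the gate on thinned nuclei the difference was 0.87 for *Prodh*, 1.05 for *Oprm1* and 0.45 for *Rps6ka2*, and against *Foxp2* nuclei it was 1.13, 0.59 and 0.11, none of which passed. Without SPF mouse 32, the difference no longer passed for *Prodh* (1.25), *Oprm1* (0.98) and *Rps6ka2* (0.81), nor did it without SPF mouse 31 for *Oprm1* (1.083) and without SPF mouse 30 for *Pkhd1* (0.70).

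The other leading genes on the negative side are known from astrocytes and other glia. *Slco1c1*, a thyroid hormone transporter gene, stood at 3.40, 4.95 and 4.74 CPM in SPF and 4.14, 2.37 and 4.70 CPM in GF *Cux2* nuclei, and rose in *Rorb* nuclei from 15.8, 7.94 and 18.3 CPM to 51.8, 40.4 and 72.4 CPM (difference -2.29 ± 0.32, adjusted p = 0.00013). *Mertk*, a phagocytic receptor gene (-1.71 ± 0.32), *Ptprz1*, a receptor phosphatase gene of glia (-1.52 ± 0.23), *Prex2* (-1.46 ± 0.24) and *Slc1a3*, the glial glutamate transporter gene (-1.23 ± 0.21), went the same way. *Rorb* is itself expressed in astrocytes, and the 5 astrocyte markers summed to 182 to 236 CPM in *Rorb* nuclei of SPF mice, 146 to 237 CPM in GF mice and 165 to 247 CPM in CGF mice, while they fell in GF *Cux2* nuclei as given above. The part of such RNA in these differences was not tested. With *Foxp2* nuclei of layer 6 in place of *Rorb* nuclei, the difference was 0.32 for *Slco1c1*, -0.15 for *Mertk*, -0.31 for *Ptprz1*, -0.18 for *Prex2* and 0.02 for *Slc1a3*, and none passed. With the gate on thinned nuclei it was -3.24, -3.04, -2.63, -2.86 and -2.81 in the same order, and all 5 passed. *Mertk* did not pass without SPF mouse 32 (-1.43).

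Members of the neuronal lists that differed between the 2 types are given here beside the 1.43% of all genes that did. *Cux1* was 1 of 13 upper-layer markers, with a fall in *Rorb* nuclei from 146, 154 and 166 CPM in SPF to 118, 129 and 124 CPM in GF against the levels in *Cux2* nuclei given above (difference 0.52 ± 0.10, adjusted p = 0.0054), but the difference was 0.00 when the gate was applied at equal depth. Of 9 AMPA and kainate subunits, *Grik3* (-1.08 ± 0.16) and *Gria1* (-0.51 ± 0.10) passed, of 20 potassium and HCN channels 2, among them *Kcnn2* (-0.54 ± 0.10), of 30 adhesion genes *Slitrk1* (0.52 ± 0.13) and *Il1rapl2* (-1.23 ± 0.21), and of 32 guidance genes *Plxna4* (-0.49 ± 0.09). Of 6 NMDA receptor subunits tested *Grin2c* passed (-1.37 ± 0.32), and of 18 neuromodulator receptors the adrenergic receptor gene *Adra1a* (-1.17 ± 0.28). With the gate on thinned nuclei the differences were -0.66 for *Grik3*, -0.21 for *Gria1*, -0.61 for *Il1rapl2*, -0.23 for *Plxna4* and -3.11 for *Grin2c*. Of 17 alternatives, *Slitrk1* passed in 4, *Grin2c* in 9 and *Adra1a* in 10. No gene of the lists of GABA-A receptors, metabotropic receptors, calcium and sodium channels, vesicle release, postsynaptic density, immediate early genes, ribosomal proteins or oxidative phosphorylation passed this test at an adjusted p of 0.05.

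**Figure D5:**
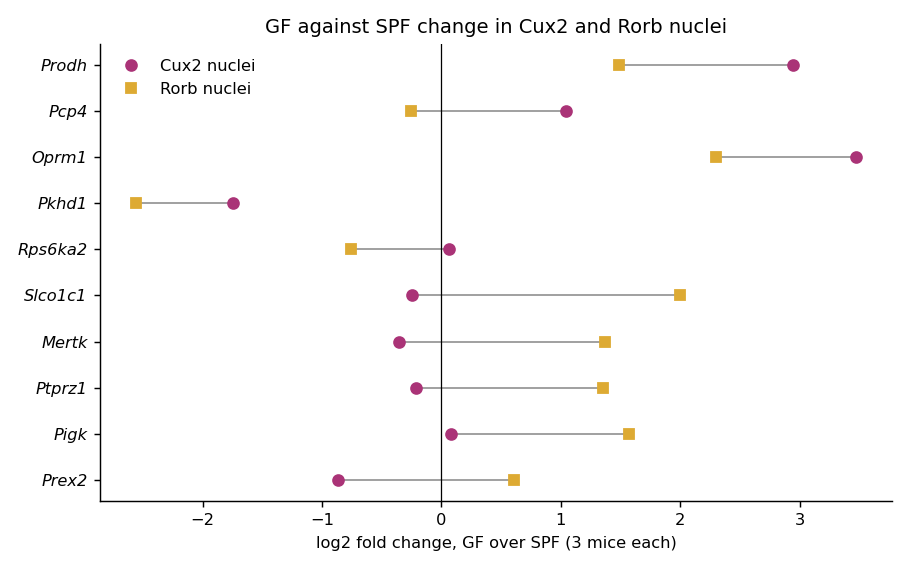
Log2 fold change of GF over SPF in *Cux2* nuclei (circles) and *Rorb* nuclei (squares) of the same 3 GF and 3 SPF mice, for the 10 genes of the naming rule whose change differed most between both types. *Pcp4* lies at 1.04 in *Cux2* and -0.26 in *Rorb* nuclei, *Pigk* at 0.08 and 1.57.

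For CGF against SPF, the change differed between *Cux2* and *Rorb* nuclei in 1 gene (0.00699% of those tested), and 758 genes had an unadjusted p under 0.05 (5.3%). This was *Erc2*, which encodes a scaffold of the presynaptic active zone. In *Cux2* nuclei it stood at 1956, 2028 and 2223 CPM in SPF, 1518, 1559 and 1594 CPM in GF and 1575, 1729 and 1509 CPM in CGF mice, and in *Rorb* nuclei at 1648, 1758 and 1971 CPM in SPF, 1765, 1833 and 1884 CPM in GF and 2051, 2193 and 1602 CPM in CGF mice (difference -0.48, adjusted p = 0.0075). In *Cux2* nuclei the GF and CGF mice lay below all SPF mice, the same SPF mice for both, whereas in *Rorb* nuclei the groups overlapped. *Erc2* passed in 11 of the 16 alternatives in which it was tested.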

How the data were processed

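Single-nucleus RNA was measured in 9 PFC libraries, 1 per mouse and 3 mice per group; the 9 Hip libraries entered only 1 figure panel and the closing values. The authors trimmed reads with fastp 0.18.0 and made the deposited UMI count matrices with Cell Ranger 3.1.0 against mm10 (Ensembl 92), without normalization. Whether intronic reads or strand entered the counting was not given in the sources used here.

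Members, gene lists and tests were chosen with earlier results of these data known. Deposited UMI counts were gated per nucleus as stated in the report, summed per library and tested in R 4.3.3 with the quasi-likelihood test of edgeR 4.0.16 (limma 3.58.1, TMM scaling, filterByExpr, group as factor over 9 libraries), leaving out the 14 rule genes, with Benjamini-Hochberg adjustment over all genes tested and a threshold of 0.05. The difference from *Rorb* nuclei was the interaction of nucleus type and group over 18 sums with the mouse as block. Both sums of a mouse come from 1 library, and their deviations from the group means correlated at r = 0.532 to 0.775 over 3323 genes. The values for other mice, at most -0.121, are no contrast to this. Deviations of the 3 mice of a group cancel out by construction, which pushes these values negative. Shares were compared with exact permutation tests (scipy 1.17.1), whose smallest two-sided p is 0.1 for 3 mice against 3. Named genes were, per test, the 5 largest rises and 5 largest falls among genes that passed with a mean of at least 50 CPM in the higher group and no overlap (without mitochondrial, Gm-number and Rik names), up to 4 passing members per list, and a fixed set of 16 genes. Gene positions came from GENCODE (30843 of 30905 genes matched) and promoters from RefSeq. DESeq2 1.42.0, no filter, length and GC correction, thinning of nuclei to 2500 UMIs or of libraries to equal mean UMIs per nucleus, a stricter gate, removal of likely doublets (Scrublet in scanpy 1.11.5), *Foxp2* nuclei as the neighbour and leaving out each mouse were alternatives. The scripts were tested on simulated data. Standard errors of fold changes came from the quasi-likelihood test and include the spread between mice. The p-values set a difference between groups against that spread. Results of some genes are not reported here.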

Additional observations from a re-analysis of the deposited data

Results flagged for a closer look

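A difference in the change between GF and SPF mice was found between *Cux2* and *Rorb* nuclei, by the interaction test, in 205 genes. Among the named genes it was 1.48 (log2) for *Prodh*, 1.32 for *Pcp4*, 1.21 for *Oprm1*, 0.83 for *Pkhd1* and 0.83 for *Rps6ka2*, where the change was more positive in *Cux2* nuclei. It was -2.29 for *Slco1c1*, -1.71 for *Mertk*, -1.52 for *Ptprz1*, -1.47 for *Pigk* and -1.46 for *Prex2*, where it was more negative. Across the alternatives *Pcp4* (1.17 to 1.47) and *Pigk* (-1.53 to -0.76) passed in each in which they were tested, whereas the difference ranged from 0.87 to 1.80 for *Prodh*, 0.59 to 1.49 for *Oprm1*, 0.11 to 0.90 for *Rps6ka2*, -3.24 to 0.32 for *Slco1c1*, -3.04 to -0.15 for *Mertk*, -2.63 to -0.31 for *Ptprz1* and -2.86 to -0.18 for *Prex2*, which did not pass in all of them. Between CGF and SPF mice the same test gave 1 gene, *Erc2*, at -0.48.

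Signals also appeared in the hippocampal libraries, which the comparisons did not use. *Sim2* stood at a mean of 8.60 ± 2.61 CPM (SD, n = 3) over all nuclei of the CGF hippocampi, against 0.175 ± 0.0463 CPM in SPF and 0.200 ± 0.0399 CPM in GF hippocampi, without overlap. Genes of the antisense biotype summed to a mean of 17672 CPM in GF hippocampi, with a range of 17225 to 17978 CPM, against 11514 to 13382 CPM in SPF and 13647 to 15137 CPM in CGF hippocampi. Over all kept PFC nuclei they summed to 15500 to 17905 CPM in GF, 4578 to 5035 CPM in SPF and 4944 to 5607 CPM in CGF mice. These hippocampal differences were not tested.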

How the results depend on the processing

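Between GF and SPF mice, the 8088 genes that passed in *Cux2* nuclei became 5782 of 11480 tested with the gate on nuclei thinned to 2500 UMIs. With libraries thinned to equal mean depth per nucleus they became 6326 of 12581. They became 7163 to 8631 when any 1 mouse was left out and 5309 of the 9671 coding genes with no opposite-strand coding gene (2330 higher and 2979 lower, an alternative chosen after seeing the data), where fewer genes were tested. The higher genes made up 51% of those that passed, against 43.9% in that subset and 43.2% after the trend with gene length and GC content was removed (3548 higher, 4663 lower). Between GF and CGF mice, the count was 7112 to 8088 without 1 mouse, 5634 with the gate on thinned nuclei and 6345 with libraries thinned.

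Between CGF and SPF mice, the 26 genes became 87 with DESeq2, 404 with no filter on low counts and 5 to 247 without 1 mouse. The 205 genes whose change from SPF to GF differed from *Rorb* nuclei became 93 with DESeq2, 369 with no filter, 124 with the gate on thinned nuclei, 63 with libraries thinned to equal mean depth per nucleus, 126 with *Foxp2* nuclei as the neighbour and 98 to 234 without 1 mouse (127, 98 and 115 without SPF mouse 30, 31 and 32). Without the replicate block, which pairs both sums of a mouse, 14 remained in count. The 1 gene of CGF against SPF became 10 with no filter, 2 with libraries thinned, 2 without likely doublets, 3 with *Foxp2* nuclei, 0 without the block and 0 to 3 without 1 mouse.

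The share of *Cux2* nuclei changed direction with thinning, to -4.68 points (nuclei) and -3.91 points (libraries) between GF and SPF and to -4.04 and -2.99 points between GF and CGF, and ranged from 0.133 to 2.33 and from 2.04 to 4.18 points without 1 mouse. Between CGF and SPF it ranged from -2.98 to -0.786 points. Of 4466 values of 246 named results under the alternatives, 4127 kept direction and side of the threshold, 334 kept the direction only and 5 changed direction. These were *Neurod6* (-0.16) and *Grm4* (0.039) without the length and GC trend, *Adarb2* (0.60) with the gate on thinned nuclei, and the differences of *Slco1c1* (0.32) and *Slc1a3* (0.021) against *Foxp2* nuclei. The cause was not tested. The 3 mice per group limit all comparisons. The depth of the GF libraries limits those with GF mice, and the housing of SPF mice apart limits those with SPF mice.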

Other observations

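Genes that led the comparisons in *Cux2* nuclei stood at other levels in the hippocampal libraries of the same mice, given as CPM over all nuclei with the mean and SD of 3 mice per group. *Psat1* was at 6.63 ± 1.59 CPM in SPF, 14.5 ± 2.80 CPM in GF and 13.1 ± 1.67 CPM in CGF hippocampi. *Asah2* was at 18.1 ± 4.02, 2.63 ± 0.181 and 6.34 ± 0.937 CPM. In both genes the GF and CGF mice lay on the same side of all SPF mice, as in *Cux2* nuclei of PFC. Both regions come from the same mice, and both genes were singled out after their values were seen, so this is no separate support.

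*Nrg3os*, near absent from SPF and CGF *Cux2* nuclei, was at 281 ± 33.6 CPM in SPF, 483 ± 15.5 CPM in GF and 345 ± 35.2 CPM in CGF hippocampi. *P2ry14* was at 89.8 ± 9.90, 218 ± 16.5 and 113 ± 14.3 CPM. *Oprm1* was at 46.9 ± 5.65, 72.6 ± 7.10 and 59.4 ± 7.08 CPM, and *Prodh* at 28.5 ± 2.94, 32.4 ± 3.34 and 27.7 ± 1.09 CPM. *Il31ra* was at 3.03 ± 1.60, 2.06 ± 0.723 and 4.92 ± 0.485 CPM, and *Gm42418* at 1025 ± 611, 272 ± 45.2 and 863 ± 179 CPM. None of these hippocampal values was tested.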
